A study of Caenorhabditis elegans with 12 samples.

Results

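The 43 genes described here encode chaperones and stress regulators of 3 compartments of the Caenorhabditis elegans cell. They were taken from a list of WormBase symbols, and each symbol was matched to 1 gene identifier of the deposited count table, which holds 46934 genes. Of the 43, 17 act in the cytosol or in its stress response, 14 in the endoplasmic reticulum (ER) and 12 in mitochondria. RNA was sequenced from whole larvae of 3 strains with biological replicates A to D, 4 per strain. The wild type is N2, HBR2340 carries flp-11(syb1445) and PHX2193 carries flp-11(syb2193), where the flp-11 gene codes for peptides that the sleep neuron RIS releases. All larvae had hatched in M9 buffer from eggs released with hypochlorite and had been kept without food in arrest at the first larval stage (L1) for 48 h, and neither the larvae's exact age nor what each allele changes in flp-11 is stated in the labels. The comparisons ask how far chaperone RNA in arrested larvae differed from the wild type in each flp-11 strain, and from one flp-11 strain to the other.

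Cells hold a separate folding machinery in each of these compartments, and each has its own alarm. In the cytosol the transcription factor HSF-1 induces small heat shock proteins, which hold unfolded clients, and HSP70 proteins, which refold them with ATP together with DNAJ partners and HSP110. In the ER, misfolded proteins activate the sensors IRE-1, PEK-1 and ATF-6, and IRE-1 splices the xbp-1 messenger RNA, so that BiP chaperones, disulphide isomerases and the machinery that exports proteins for degradation are made. In mitochondria, failing protein import lets the transcription factor ATFS-1 reach the nucleus, where it induces the mitochondrial HSP70 and HSP60 and proteases. These responses are known for changing RNA levels many-fold under heat or toxins, while most of the constitutive chaperones are among the abundant messages of a resting larva.

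Total counts were 23068345 to 34832403 per library in N2, 25642142 to 28865328 in HBR2340 and 23941071 to 30526360 in PHX2193. Levels are given in CPM, the counts of a gene scaled by the total and the TMM factor of its library, and 3 counts corresponded to 0.0823 to 0.170 CPM depending on the library. The labelled gene, flp-11, had 211, 367, 231 and 206 CPM across N2 A to D, 108, 113, 128 and 142 CPM across HBR2340, and 19.3, 23.2, 22.1 and 19.7 CPM across PHX2193. The library N2 B stood apart from the other N2 libraries. Its TMM factor was 0.717, against 0.945 to 1.18 in the others, and 29.2% of the tested genes differed by over 2-fold from the average of the remaining replicates, against 3.07% to 11.8% in the other libraries measured the same way. The comparisons were therefore made with and without N2 B. N2 D and PHX2193 D also stood apart in the summed level of 4 embryo and oocyte markers (egg-1, oma-1, pie-1, mex-5), which was 35.2 and 24.5 CPM there and 2.89 to 8.15 CPM elsewhere. Sperm markers were at or near 0 in every library, with msp-3, msp-10 and ssp-9 adding up to at most 0.0602 CPM. Of the tissue markers, all 3 body muscle genes (myo-3, unc-54, unc-15) were called higher in HBR2340 than in both other strains by edgeR, with summed levels of 5367 to 10247 CPM in N2, 13231 to 14455 CPM in HBR2340 and 2646 to 5312 CPM in PHX2193. In RNA of whole larvae, fewer cells of a type and less RNA per cell cannot be told apart. Pharynx markers (myo-2, pha-4, tnc-2) added up to 1602 to 2579 CPM in N2 A, C and D, 4588 CPM in N2 B, 3532 to 4030 CPM in HBR2340 and 1498 to 2806 CPM in PHX2193. Without N2 B edgeR called myo-2 and pha-4 higher in HBR2340 than in both other strains. In that fit tnc-2 went the other way and was called lower in HBR2340 than in PHX2193. Of 4 intestine markers, elt-2 was lower in HBR2340 than in N2 (−0.91 ± 0.21, edgeR, adjusted p = 0.0215) and higher in PHX2193 than in HBR2340 (1.13 ± 0.21, 0.00249), as was ges-1 without N2 B, while the summed intestine level overlapped between the strains. With and without N2 B, 1 of the 4 went the other way, lying above 0 in HBR2340 against N2. Of 5 neuron markers, rab-3 was lower in PHX2193 than in HBR2340 (−0.43 ± 0.11, edgeR, adjusted p = 0.0151). Another, unc-119, went the other way without N2 B, called higher in PHX2193 than in HBR2340 and lower in HBR2340 than in N2. Summed levels of neuron, epidermis and germ cell markers overlapped between N2 and each of the other strains. The design text calls the 4 libraries of a strain biological replicates and does not say whether they came from separate cultures, so p-values measure the spread between these libraries, which may be technical in part.

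The 43 genes spanned more than 3 orders of magnitude in level per length. Divided by the summed length of a gene's exons, the mean of N2 A, C and D was highest for the cytosolic HSP90 gene hsp-90 (2642 CPM per kb) and the ER calcium-binding chaperone calreticulin, crt-1 (1757 CPM per kb). Next came the inner membrane translocase subunit timm-23 (1040 CPM per kb), the constitutive cytosolic HSP70 gene hsp-1 (545), xbp-1 (309.6) and the mitochondrial HSP70 gene hsp-6 (295). The lowest were hsp-16.11 (1.18 CPM per kb), hsp-16.1 (1.32), hsp-16.48 (1.71), hsp-12.1 (1.98) and hsp-16.49 (2.11), all small heat shock genes. The mitochondrial chaperonin gene hsp-60, at 14.99 CPM per kb, was far below its partner hsp-6. The order was nearly the same in the 3 strains at the top, where hsp-90, crt-1, timm-23 and hsp-1 held ranks 1 to 4 in HBR2340 and in PHX2193. The heat-inducible HSP70 gene hsp-70 moved most along this order, from rank 36 in N2 (6.40 CPM per kb) to rank 23 in HBR2340 (34.7 CPM per kb), and it held rank 37 in PHX2193 (4.34 CPM per kb). Of crt-1's exonic length, 6.6% (92 bases) overlaps exons of smut-1 on the opposite strand, and whether strand was used in counting is not stated in these sources.

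**Figure D1:**
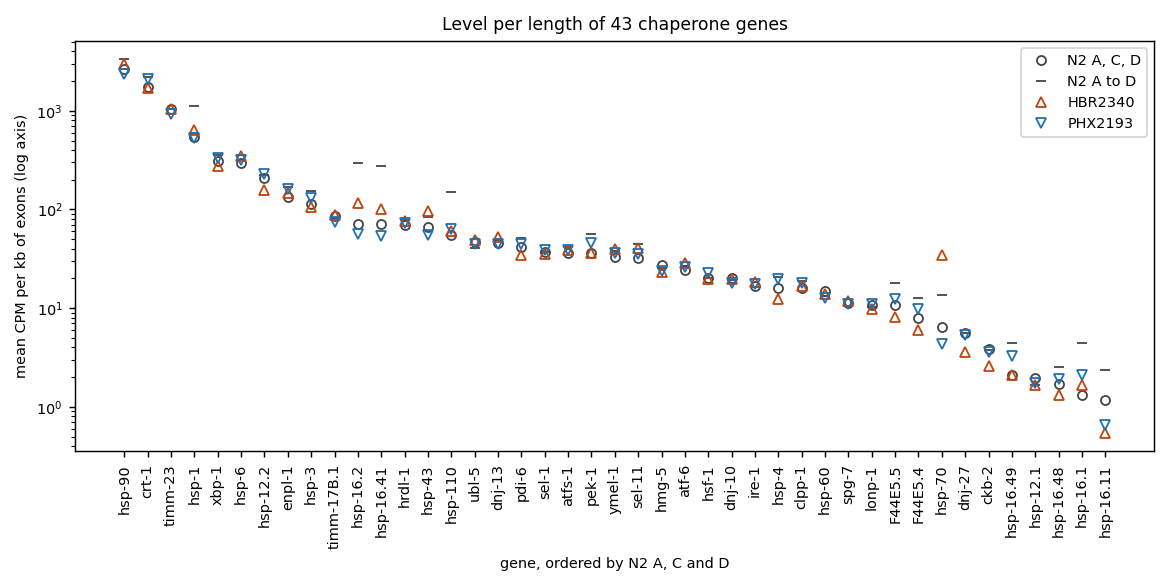
Mean level per kb of exons (CPM per kb, log axis) of the 43 genes, ordered by the mean of N2 A, C and D (circles), with the mean of all 4 N2 libraries as dashes, HBR2340 as upward and PHX2193 as downward triangles. The symbols lie close together for most genes, while the HBR2340 symbol of hsp-70, at 34.7 CPM per kb, lies above the circle at 6.40, and the N2 dashes lie above the circles where N2 B was high.

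Within N2, most of the cytosolic members were high in N2 B. More than 2-fold above the mean of N2 A, C and D were 18 of the 43 genes, and 2 (hsp-12.1 and ubl-5) were more than 2-fold below it, while of 15908 tested genes 1462 (9.19%) were more than 2-fold higher and 3181 more than 2-fold lower in that library, 29.2% in all. By compartment these were 13 higher and 1 lower of 17 cytosolic genes, 5 higher and 0 lower of 14 ER genes and 0 higher and 1 lower of 12 mitochondrial genes. The median log2 ratio was 1.89 for the cytosolic, 0.82 for the ER and −0.19 for the mitochondrial genes, against −0.15 for all tested genes. The rise was not general to the pathway lists described below. Of 32 other cytosolic chaperones 3 were higher and 1 lower (median 0.23), and of 22 other ER genes 2 and 0 (0.36). Of 21 other mitochondrial genes 0 were higher and 1 lower (−0.12). Scaled by total counts alone, which puts the median of all tested genes at −0.72, 11 of the 43 were more than 2-fold higher and 4 lower, and scaled with DESeq2 size factors 20 were higher and 1 lower. N2 A and N2 C each had 12 members more than 2-fold below the mean of the other 3 N2 libraries, a mean that includes N2 B, and 0 above it. This is 1 library, so no test was made, and what set N2 B apart was not tested.

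**Figure D2:**
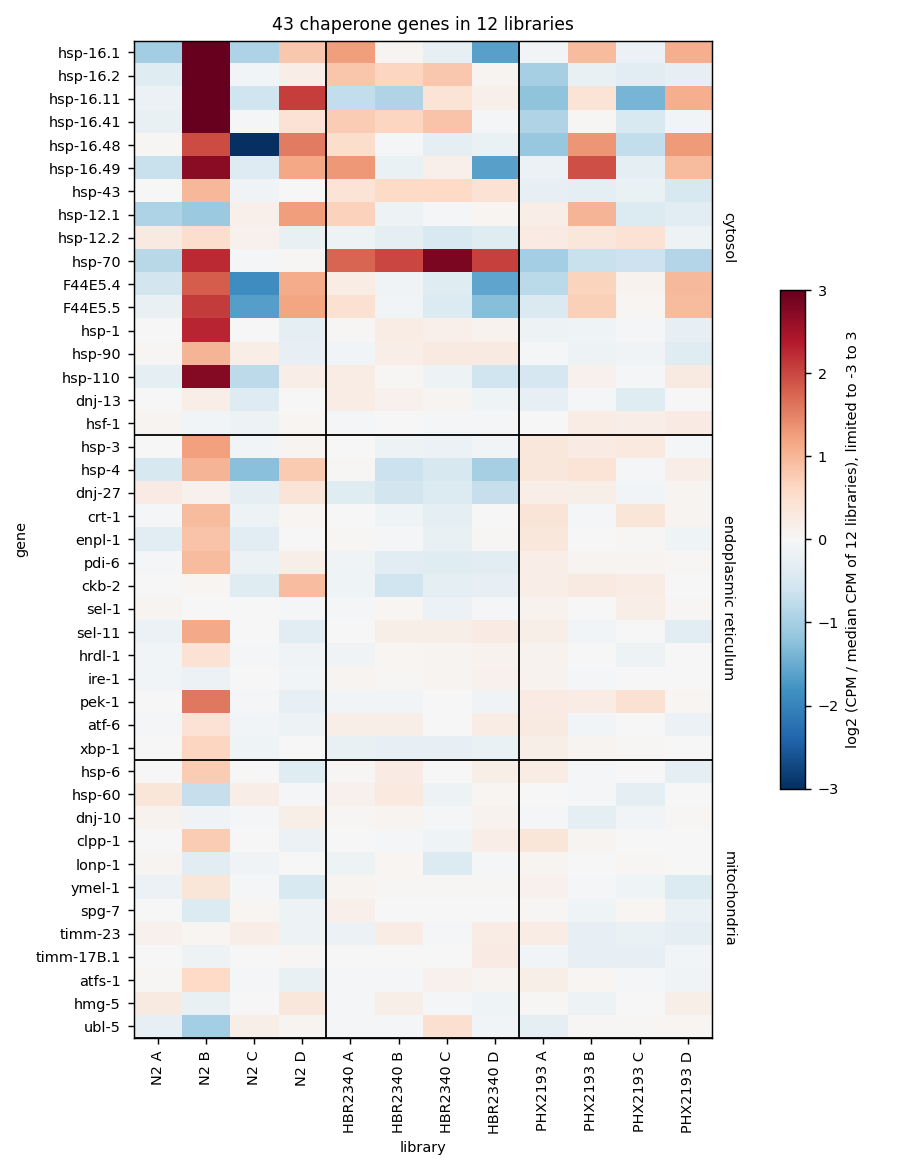
Level of the 43 genes (grouped by compartment from top to bottom) in the 12 libraries (columns), as log2 of CPM over the gene's median CPM, with the colour scale limited to −3 to 3 and the library with 0 counts of hsp-16.48 (N2 C) shown at −3. The N2 B column is red for most of the 17 cytosolic genes, the 4 HBR2340 columns are red for hsp-70, and the mitochondrial block is pale in all columns.

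Against N2, HBR2340 had 0 members higher and 1 lower (dnj-27) over all 12 libraries, which is 2.33% of the 43 (edgeR's quasi-likelihood test over 15908 genes, with a call meaning a Benjamini-Hochberg p below 0.05). Of all tested genes, 3.34% were called higher and 4.03% lower by the same rule. At an unadjusted p under 0.05 there were 6 members, DESeq2 called 2 and limma-voom 4. Without N2 B, 2 members were higher (hsp-70 and hsp-43) and 1 lower (dnj-27), or 4.65% and 2.33% of the members, against 7.93% higher and 9.80% lower of 16249 tested genes. The median log2 fold change of the members was −0.16 over 12 libraries and 0.00 without N2 B, and that of all tested genes was −0.04 in both fits. As a share, the members were called no more often than genes at large.

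Between PHX2193 and N2 none of the 43 genes was called by edgeR, with 0 higher and 0 lower in both fits. Of all tested genes, 0.163% were called higher and 0.201% lower over 12 libraries, and 0.739% and 0.665% without N2 B. At an unadjusted p under 0.05 there were 6 members over 12 libraries (1 called by DESeq2, hsp-70 lower, and 0 by limma-voom) and 3 without N2 B, hsp-43, pek-1 and timm-17B.1. The members' median log2 fold change was −0.12 (−0.01 for all tested genes) and 0.07 without N2 B (−0.01 for all tested genes).

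Between the flp-11 strains, PHX2193 had 2 members higher than HBR2340 (dnj-27 and hsp-12.2) and 2 lower (hsp-70 and hsp-43) over all 12 libraries, 4.65% in each direction, where 10.1% of all tested genes were higher and 9.39% lower (edgeR quasi-likelihood). Without N2 B, 6 were higher (dnj-27, hsp-12.2, hsp-3, pdi-6, pek-1 and xbp-1) and 5 lower (hsp-70, hsp-43, hsp-16.2, hsp-16.41 and timm-17B.1). These are 14.0% and 11.6% of the members, against 17.3% and 15.6% of all tested genes. N2 B enters this comparison through the estimate of the spread and the scaling, and its removal made the standard errors smaller while the fold changes moved little, as from −1.04 ± 0.77 to −1.03 ± 0.21 for hsp-16.2. All 3 comparisons share libraries, so their values for a gene are not independent.

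**Figure D3:**
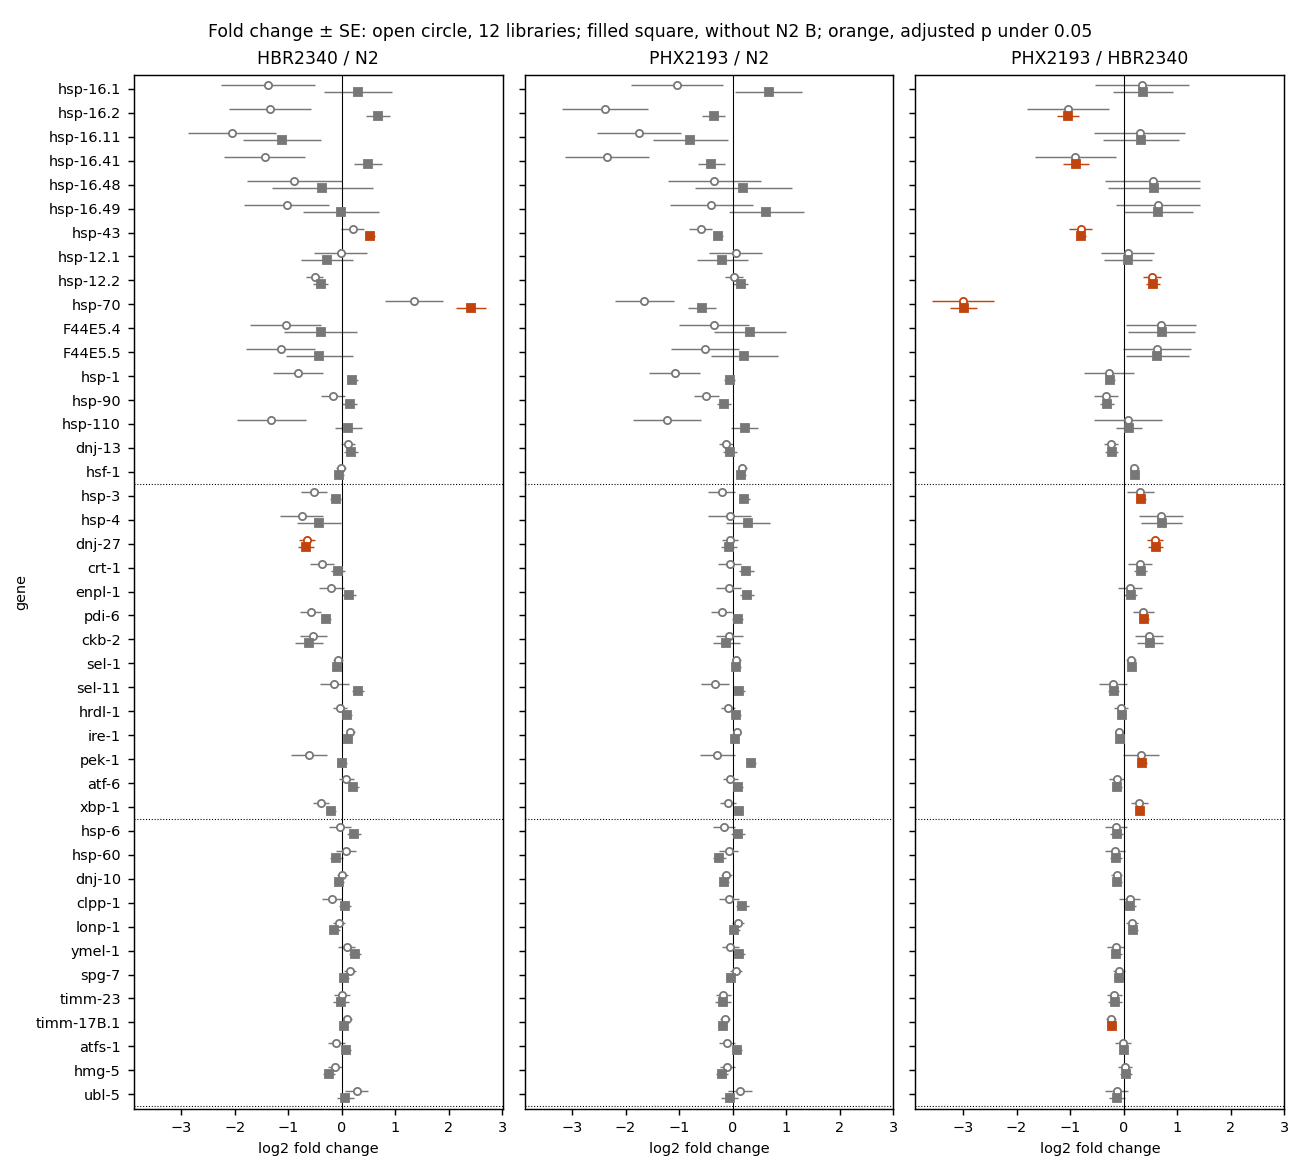
Log2 fold change ± SE of the 43 genes in the 3 comparisons, with 4 libraries per strain (open circles) or without N2 B (filled squares), and genes with an adjusted p under 0.05 in orange. Against N2 the circles of many cytosolic genes lie left of the squares, and in the right panel hsp-70 lies farthest from 0, at −2.999 ± 0.58.

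The clearest difference between strains was in hsp-70 (WBcel235 chromosome I, 9320325 to 9322519, minus strand), a heat-inducible cytosolic HSP70 gene. Its level was 8.69, 73.2, 15.1 and 15.7 CPM across N2 A to D, 51.6, 62.0, 109 and 63.3 CPM across HBR2340 A to D, and 7.66, 9.63, 10.1 and 8.32 CPM across PHX2193 A to D. All 4 HBR2340 libraries lay above N2 A, C and D and above all 4 PHX2193 libraries, while N2 B lay within the HBR2340 range. The mean was 13.2 ± 3.89 CPM in N2 A, C and D (SD, n = 3), 71.4 ± 25.4 CPM in HBR2340 (SD, n = 4) and 8.92 ± 1.12 CPM in PHX2193 (SD, n = 4). Relative to N2, the log2 fold change in HBR2340 was 1.35 ± 0.54 (SE) over 12 libraries and did not pass (edgeR, adjusted p = 0.172). Without N2 B it was 2.42 ± 0.28, a 5.34-fold higher level, and passed (edgeR, adjusted p = 0.000221). Over all 12 libraries limma-voom called hsp-70 higher in HBR2340 than in N2. PHX2193 was 7.99-fold below HBR2340, at −2.999 ± 0.58 (edgeR, adjusted p = 0.00346), and at −2.99 ± 0.26 without N2 B (8.08e-06). That difference was called with every one of the 12 libraries left out in turn. Against N2, PHX2193 stood at −1.65 ± 0.56 over 12 libraries (edgeR, adjusted p = 0.256) and at −0.57 ± 0.27 without N2 B (0.404). Body muscle markers were high in the same HBR2340 libraries (13231 to 14455 CPM summed) and lowest in PHX2193. The pharynx markers myo-2 and pha-4 were also called higher in HBR2340 without N2 B, while tnc-2 went the other way. The summed pharynx level was high in N2 B as well. The part of these markers in the hsp-70 values was not tested.

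The pair F44E5.4 and F44E5.5 encodes near-identical inducible HSP70 proteins, and its levels were not ordered by strain as those of hsp-70 were. The genes lie head to head on chromosome II with 350 bases between their starts. F44E5.4 had 10.9, 55.7, 4.36 and 34.3 CPM across N2 A to D, 18.4, 14.6, 12.4 and 5.32 CPM across HBR2340 A to D, and 9.003, 25.2, 16.97 and 31.2 CPM across PHX2193 A to D. F44E5.5 had 16.545, 82.4, 6.11 and 44.2 CPM across N2 A to D, 26.4, 18.4, 14.5 and 7.997 CPM across HBR2340 A to D, and 14.3, 31.7, 20.3 and 37.3 CPM across PHX2193 A to D. N2 B was highest for both, N2 C and HBR2340 D were low, and the ranges of the 3 strains overlapped. In HBR2340 against N2 without N2 B, the log2 fold change was −0.40 ± 0.68 for F44E5.4 and −0.42 ± 0.62 for F44E5.5, with 95% intervals of −1.91 to 1.12 and −1.82 to 0.98, both below the interval of hsp-70 (1.81 to 3.02). Neither gene was called in any comparison, and the ratio of their levels stayed between 0.631 and 0.854 in the 12 libraries. The treatment of reads shared by both copies is not stated in these sources, so the split between them is uncertain.

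Small heat shock proteins of the HSP-16 family bind unfolded proteins and are the standard reporters of the heat shock response. The genes hsp-16.2 (WBGene00002016) and hsp-16.41 (WBGene00002018) lie head to head on chromosome V with 220 bases between their starts. The level of hsp-16.2 was 33.8, 554, 41.02 and 49.5 CPM across N2 A to D, 77.4, 68.1, 76.0 and 45.5 CPM across HBR2340 A to D, and 21.6, 36.9, 34.6 and 36.4 CPM across PHX2193 A to D. For hsp-16.41 it was 37.1, 569, 42.0 and 57.8 CPM across N2 A to D, 72.5, 67.6, 77.2 and 42.2 CPM across HBR2340 A to D, and 23.1, 43.8, 31.3 and 40.3 CPM across PHX2193 A to D. N2 B lay 13.4-fold and 12.5-fold above the mean of the other N2 libraries, far outside the range of all other libraries, and among those HBR2340 A, B and C were highest. Between the genes the ratio stayed within 0.841 to 1.11 over all 12 libraries. With N2 B the HBR2340 fold change against N2 was negative, at −1.34 ± 0.77 for hsp-16.2 and −1.44 ± 0.76 for hsp-16.41, and without it positive, at 0.67 ± 0.22 and 0.49 ± 0.26. None of these 4 passed (edgeR, adjusted p = 0.364, 0.317, 0.0583 and 0.218). PHX2193 was lower than HBR2340 without N2 B, by −1.03 ± 0.21 for hsp-16.2 (edgeR, adjusted p = 0.00247) and −0.89 ± 0.24 for hsp-16.41 (0.0136). With all 12 libraries these were −1.04 ± 0.77 and −0.90 ± 0.76 and did not pass (0.402 and 0.466, edgeR). In that setting limma-voom called both genes lower, and DESeq2 gave neither an adjusted p.

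The genes hsp-70 and hsp-16.2 stood in different proportion in N2 B and in HBR2340. The CPM of hsp-70 over that of hsp-16.2 was 0.257, 0.132, 0.368 and 0.318 in N2 A to D, 0.666, 0.910, 1.43 and 1.39 in HBR2340 and 0.354, 0.261, 0.291 and 0.229 in PHX2193. Every HBR2340 library was above every other library, and N2 B, with the highest hsp-16.2 level, had the lowest ratio. This ratio was chosen after the values were seen and was not tested.

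The other 4 HSP-16 genes lie together on chromosome V as 2 head-to-head pairs, with 348 bases between the starts of hsp-16.1 and hsp-16.48 and 310 between those of hsp-16.49 and hsp-16.11. They are near-identical copies (hsp-16.1 with hsp-16.11 and hsp-16.48 with hsp-16.49) and were covered by 0 to 108 counts per library, so their separate values are uncertain. The level of hsp-16.1 was 0.304, 6.13, 0.329 and 1.10 CPM across N2 A to D, 1.498, 0.663, 0.528 and 0.203 CPM across HBR2340 A to D, and 0.589, 1.20, 0.553 and 1.34 CPM across PHX2193 A to D, and that of hsp-16.11 was 0.261, 2.84, 0.192 and 1.24 CPM across N2 A to D, 0.174, 0.156, 0.387 and 0.325 CPM across HBR2340 A to D, and 0.126, 0.391, 0.111 and 0.624 CPM across PHX2193 A to D. For hsp-16.49 it was 0.478, 4.94, 0.576 and 1.68 CPM across N2 A to D, 1.88, 0.663, 0.845 and 0.244 CPM across HBR2340 A to D, and 0.673, 2.89, 0.627 and 1.46 CPM across PHX2193 A to D. N2 B was highest for all of these, 10.6-fold, 5.04-fold and 5.41-fold above the mean of the other N2 libraries. The lowest value of hsp-16.48 was 0 counts in N2 C, and its highest was 2.16 CPM in N2 B. None of the 4 was called in any comparison, and without N2 B their log2 fold changes had standard errors of 0.57 to 0.94.

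Of the remaining small heat shock genes, hsp-43 ran parallel to hsp-70 at a smaller scale. It had 93.8, 189.8, 88.1 and 95.0 CPM across N2 A to D, 125, 142, 143 and 128 CPM across HBR2340 A to D, and 79.5, 78.1, 82.3 and 68.1 CPM across PHX2193 A to D. The 4 HBR2340 libraries lay above N2 A, C and D, the PHX2193 libraries lay below all others, and N2 B was highest. Its log2 fold change in HBR2340 against N2 was 0.20 ± 0.21 (edgeR, adjusted p = 0.648) and 0.52 ± 0.09 without N2 B (0.00172). With all 12 libraries limma-voom called hsp-43 higher in HBR2340 than in N2. PHX2193 was 1.74-fold below HBR2340, −0.80 ± 0.21 over 12 libraries (edgeR, adjusted p = 0.0178) and −0.79 ± 0.08 without N2 B (1.55e-05). Over 12 libraries this call ended without HBR2340 B (edgeR adjusted p = 0.0539), HBR2340 C (0.0540) or PHX2193 D (0.0621). The body muscle markers named above were ordered in the same way between the strains, and their part in this result was not tested.

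The gene hsp-12.2, of a class of short small heat shock proteins that heat does not induce, went the other way. Its level was 122, 147, 112 and 88.0 CPM across N2 A to D, 92.0, 84.3, 73.7 and 79.8 CPM across HBR2340 A to D, and 120.5, 128, 138 and 91.0 CPM across PHX2193 A to D. HBR2340 was lowest, with HBR2340 A above N2 D and PHX2193 D. In PHX2193 against HBR2340 its log2 fold change was 0.53 ± 0.16 (edgeR, adjusted p = 0.0361) and 0.54 ± 0.13 without N2 B (0.00708). The 12-library call ended on leaving out any of 6 libraries, HBR2340 B, C or D (edgeR adjusted p = 0.0618, 0.0860 and 0.0754) or PHX2193 A, B or C (0.0689, 0.0945 and 0.0919). Against N2, HBR2340 stood at −0.51 ± 0.16 (edgeR, adjusted p = 0.0835) and at −0.39 ± 0.14 without N2 B (0.0759). It passed at −0.62 ± 0.15 without N2 D (edgeR, adjusted p = 0.0284), the only single library whose removal brought a call. DESeq2 and limma-voom called this difference over 12 libraries. With N2 D and PHX2193 D both left out, edgeR called it too, with or without N2 B. The related hsp-12.1 had 0.341 to 1.75 CPM and was not called in any comparison.

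**Figure D4:**
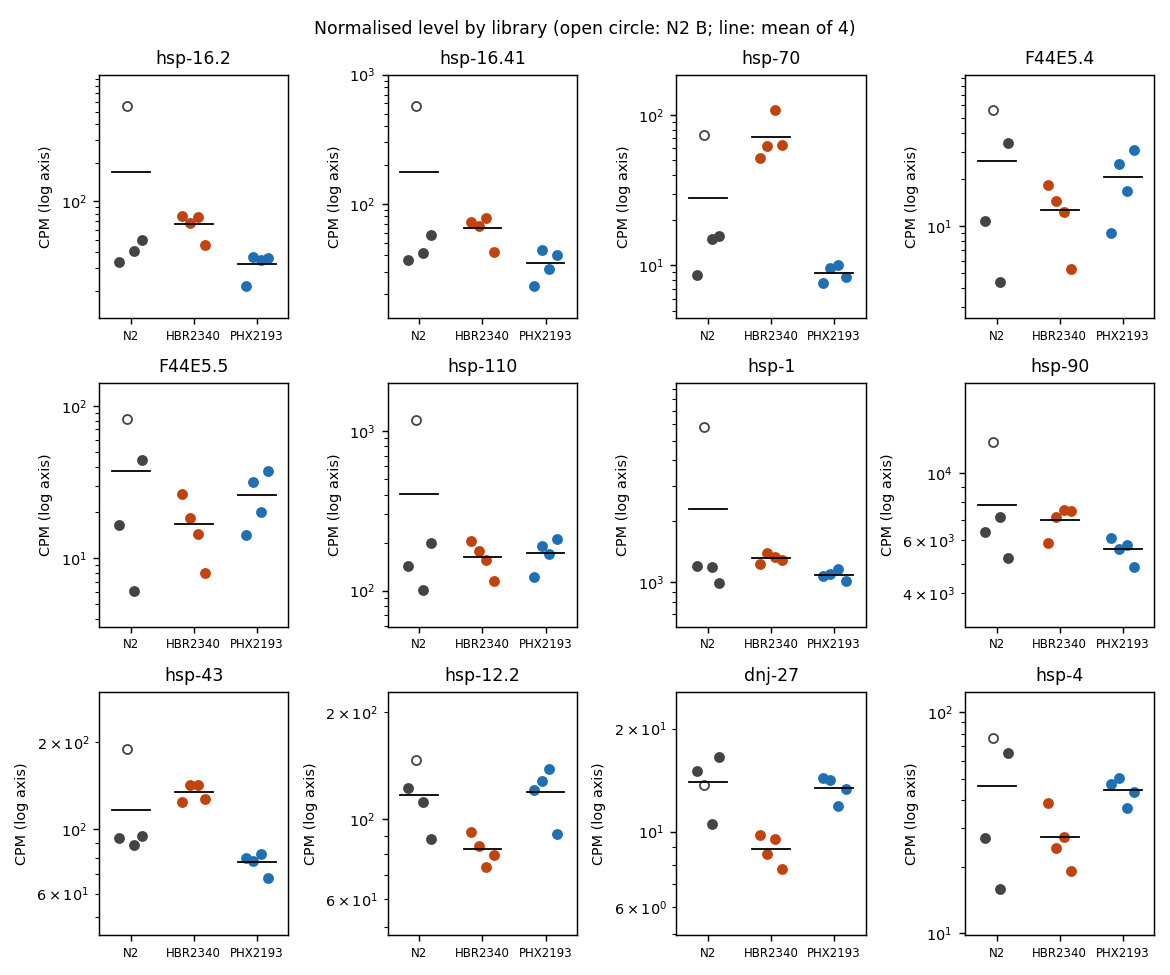
Level in every library (CPM, log axis) of 12 members in N2 (grey, N2 B as an open circle), HBR2340 (orange) and PHX2193 (blue), with a line at the mean of 4 libraries. For hsp-70 the HBR2340 points, at 51.6 to 109 CPM, lie above all PHX2193 points and above N2 A, C and D, and for hsp-16.2, hsp-16.41, hsp-110 and hsp-1 the open circle lies above every other point.

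The constitutive chaperone genes hsp-1 and hsp-90 and the HSP110 gene were high in N2 B. Between strains edgeR did not call them over 12 libraries or without N2 B. The HSP70 gene hsp-1 had 1206, 5855, 1189 and 992 CPM across N2 A to D, 1231, 1395, 1329 and 1285 CPM across HBR2340 A to D, and 1077, 1098, 1164 and 1013 CPM across PHX2193 A to D. Without N2 B all libraries lay between 992 and 1395 CPM. The HSP90 gene hsp-90 had 6369, 12607, 7122 and 5207 CPM across N2 A to D, 5833, 7141, 7522 and 7472 CPM across HBR2340 A to D, and 6073, 5575, 5778 and 4871 CPM across PHX2193 A to D. N2 B was again highest, 5.19-fold and 2.02-fold above the mean of the other N2 libraries for the 2 genes. The HSP110 gene hsp-110, whose product exchanges the nucleotide on HSP70, had 142, 1177, 101 and 199.7 CPM across N2 A to D, 204, 178, 156 and 115 CPM across HBR2340 A to D, and 122, 189.7, 169 and 210.4 CPM across PHX2193 A to D. It was 7.97-fold higher in N2 B, and outside N2 B the 3 strains overlapped. For hsp-1 the log2 fold change of PHX2193 against HBR2340 without N2 B was −0.26 ± 0.09 and for hsp-90 −0.32 ± 0.13, neither called (edgeR, adjusted p = 0.0534 and 0.0780). In this comparison limma-voom called hsp-90 lower over 12 libraries (adjusted p = 0.042). With N2 B, N2 D and PHX2193 D left out, edgeR called hsp-1 lower (adjusted p = 0.0366). The DNAJ partner dnj-13 was not high in N2 B (1.23-fold) and stayed between 53.7 and 82.1 CPM.

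The regulator of the cytosolic response, hsf-1, varied little. It had 53.3, 48.13, 45.2 and 52.8 CPM across N2 A to D, 48.15, 51.1, 49.0 and 48.8 CPM across HBR2340 A to D, and 49.98, 59.1, 57.9 and 59.5 CPM across PHX2193 A to D. N2 B, at 48.13 CPM, lay inside the range of the other N2 libraries, and PHX2193 B, C and D were the 3 highest libraries. Its log2 fold change in HBR2340 against N2 was −0.02 ± 0.09 (95% interval −0.21 to 0.18), and in PHX2193 against HBR2340 0.20 ± 0.09 (edgeR, adjusted p = 0.145, and 0.0644 without N2 B). Over 12 libraries limma-voom called hsf-1 higher in PHX2193 than in HBR2340 (adjusted p = 0.03). Transcript level says nothing about the activity of HSF-1, which is set on the protein.

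Among ER genes, dnj-27 was the member lower in HBR2340 than in both other strains. It encodes an ER-luminal DNAJ protein with thioredoxin domains that reduces disulphide bonds (WBGene00001045; WBcel235 chromosome I, 11877803 to 11887278, plus strand). Its level was 15.03, 13.7, 10.5 and 16.485 CPM across N2 A to D, 9.76, 8.58, 9.54 and 7.75 CPM across HBR2340 A to D, and 14.4, 14.1, 11.9 and 13.3 CPM across PHX2193 A to D. All 4 HBR2340 libraries lay below every N2 and every PHX2193 library, and N2 B, at 13.7 CPM, did not stand apart. In HBR2340 against N2 the log2 fold change was −0.64 ± 0.15 (edgeR, adjusted p = 0.0199) and −0.67 ± 0.15 without N2 B (0.00986). This call ended without N2 A (edgeR adjusted p = 0.0535), HBR2340 B (0.0579) or HBR2340 D (0.0659). PHX2193 was 1.51-fold above HBR2340, 0.59 ± 0.15 (edgeR, adjusted p = 0.0135), and this held with each of the 12 libraries left out in turn (0.00573 to 0.0453). The intestine marker elt-2 was lower in HBR2340 in the same way, while 1 of the 4 intestine markers lay above 0 in HBR2340 against N2. The part of elt-2 was not tested. PHX2193 against N2 gave −0.05 ± 0.15, with a 95% interval of −0.37 to 0.27.

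The BiP genes hsp-3 and hsp-4 encode the HSP70 proteins of the ER. The constitutive hsp-3 had 299.7, 714, 287 and 323 CPM across N2 A to D, 306, 275, 267 and 286 CPM across HBR2340 A to D, and 383, 357, 372 and 298 CPM across PHX2193 A to D. The stress-inducible hsp-4 had 27.1, 76.5, 15.9 and 65.4 CPM across N2 A to D, 39.0, 24.3, 27.2 and 19.04 CPM across HBR2340 A to D, and 47.6, 50.1, 36.7 and 43.4 CPM across PHX2193 A to D. N2 B was highest for both, but hsp-4 was nearly as high in N2 D, and N2 as a whole spread from 15.9 to 76.5 CPM. For hsp-3, PHX2193 was higher than HBR2340 without N2 B, 0.33 ± 0.09 (edgeR, adjusted p = 0.0181). With N2 B edgeR did not call hsp-3 (0.31 ± 0.25, 0.437), while limma-voom did. The larger difference of hsp-4, 0.70 ± 0.41, was not called by edgeR (adjusted p = 0.271, and 0.189 without N2 B), with a 95% interval of −0.18 to 1.58. Over 12 libraries limma-voom called it (adjusted p = 0.042).

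Of the ER regulators, xbp-1 and pek-1 were higher in PHX2193 than in HBR2340 once N2 B was left out, as was the isomerase gene pdi-6. The gene xbp-1, whose messenger RNA IRE-1 splices, had 459.8, 724, 419.9 and 463 CPM across N2 A to D, 397, 389.6, 389 and 403 CPM across HBR2340 A to D, and 517, 491, 470.3 and 461 CPM across PHX2193 A to D. HBR2340 lay below every other library. The kinase gene pek-1, whose product slows translation, had 144, 428, 137 and 121 CPM across N2 A to D, 134, 135, 141 and 132 CPM across HBR2340 A to D, and 169, 167, 196 and 148 CPM across PHX2193 A to D, and pdi-6, a protein disulphide isomerase gene, had 67.6, 133, 60.8 and 78.4 CPM across N2 A to D, 64.0, 55.3, 53.6 and 54.8 CPM across HBR2340 A to D, and 78.8, 72.7, 72.6 and 70.4 CPM across PHX2193 A to D. For all 3 genes N2 B was highest, every PHX2193 library lay above every HBR2340 library, and N2 A, C and D lay below the PHX2193 range for pek-1 and overlapped both ranges for pdi-6. Without N2 B, PHX2193 against HBR2340 gave 0.31 ± 0.08 for xbp-1, 0.34 ± 0.09 for pek-1 and 0.38 ± 0.09 for pdi-6, all called (edgeR, adjusted p = 0.00805, 0.0128 and 0.00628). With all 12 libraries none of the 3 passed by edgeR (0.212, 0.553 and 0.230), while limma-voom with sample weights called all 3. Against N2, pdi-6 in HBR2340 stood at −0.58 ± 0.20 over 12 libraries (edgeR, adjusted p = 0.106) and at −0.29 ± 0.10 without N2 B (0.0586), and of the 12 single libraries only leaving out N2 C brought a call (−0.71 ± 0.19, 0.0494). The intestine markers elt-2 and ges-1 were ordered between the flp-11 strains as these 3 genes were. Of the 4 intestine markers, 3 lay above 0 in that comparison, with and without N2 B, and the other lay below. The part of these markers in these results was not tested. The counts do not separate spliced from unspliced xbp-1.

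The other 8 ER members were not called by edgeR in any comparison, with or without N2 B. They are crt-1, the HSP90-like enpl-1, the choline kinase gene ckb-2, the degradation genes sel-1, sel-11 and hrdl-1, and the sensors ire-1 and atf-6. Of these, ire-1 stayed between 53.0 and 64.7 CPM and sel-1 between 78.0 and 101 CPM over all 12 libraries. Level ranges were wider for crt-1 (2122 to 4904 CPM), enpl-1 (325 to 734) and the ubiquitin ligase gene sel-11 (61.4 to 168), each with its maximum in N2 B. The maximum of ckb-2, 7.18 CPM, was in N2 D, and limma-voom called this gene higher in PHX2193 than in HBR2340. In PHX2193 against HBR2340 the median of the 14 ER members was 0.30 over 12 libraries and 0.31 without N2 B, with 10 of 14 above 0. The medians over all tested genes were 0.02 and 0.03, with 8212 of 15908 and 8626 of 16249 genes above 0. Of 22 other ER folding and degradation genes, described below, 10 and 11 lay above 0, with medians of −0.02 and −0.01.

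The mitochondrial members differed little between strains. Their chaperone hsp-6 had 778, 1338, 785 and 614 CPM across N2 A to D, 811, 944, 796 and 885 CPM across HBR2340 A to D, and 922, 774, 779 and 649.5 CPM across PHX2193 A to D. The chaperonin gene hsp-60 had 36.0, 17.4, 32.1 and 27.2 CPM across N2 A to D, 30.7, 34.4, 25.2 and 29.0 CPM across HBR2340 A to D, and 28.5, 27.4, 23.5 and 27.7 CPM across PHX2193 A to D. N2 B was highest for hsp-6 and lowest for hsp-60. The regulator atfs-1 had 75.3, 111, 72.0 and 63.1 CPM across N2 A to D, 70.2, 71.1, 80.3 and 78.1 CPM across HBR2340 A to D, and 82.7, 77.1, 70.3 and 68.2 CPM across PHX2193 A to D, and its HBR2340 and PHX2193 ranges overlapped almost fully. In HBR2340 against N2, log2 fold changes of the 12 genes ran from −0.18 to 0.28, with 0 called and 0 at an unadjusted p under 0.05 by edgeR, and 0 called by DESeq2 and by limma-voom. In PHX2193 against N2 they ran from −0.17 to 0.14, with the same counts of 0. These ranges were −0.24 to 0.25 and −0.25 to 0.18 without N2 B, where edgeR called 0 in both, with 0 and 1 at an unadjusted p under 0.05.

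Of the mitochondrial members, edgeR called timm-17B.1 alone and in 1 comparison. It encodes a subunit of the inner membrane import channel. It had 77.2, 68.2, 76.4 and 78.4 CPM across N2 A to D, 77.3, 77.4, 76.3 and 89.996 CPM across HBR2340 A to D, and 72.0, 64.6, 64.0 and 71.8 CPM across PHX2193 A to D. PHX2193 lay below every HBR2340 library, with a log2 fold change of −0.24 ± 0.09 over 12 libraries, which did not pass (edgeR, adjusted p = 0.0973; 1 at an unadjusted p under 0.05, 1 called by DESeq2 and 2 by limma-voom). Without N2 B it was −0.23 ± 0.08 and passed (0.0392). The import gene timm-23 ranged from 715 to 1007 CPM. The protease genes clpp-1, lonp-1, ymel-1 and spg-7, the DNAJ gene dnj-10, the mitochondrial DNA-binding gene hmg-5 and the ubiquitin-like regulator ubl-5 were not called either. Their lowest library was ubl-5 in N2 B (7.44 CPM) and their highest ymel-1 in N2 B (129.9 CPM).

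Other genes of the same pathways were read from 3 further lists. Of 32 other cytosolic chaperones, edgeR called 0 in HBR2340 against N2 (1 had an unadjusted p under 0.05, while limma-voom called 5 and DESeq2 1), and without N2 B 2 higher (hsp-12.3 and hsp-12.6) and 1 lower (the prefoldin gene pfd-3). Without N2 B these are 6.25% and 3.12% of the list, against 7.93% and 9.80% of all tested genes. The short small heat shock gene hsp-12.3 had 78.8, 1024, 94.4 and 105 CPM across N2 A to D, 415, 373, 374 and 331 CPM across HBR2340 A to D, and 47.5, 38.0, 67.2 and 25.4 CPM across PHX2193 A to D. The related hsp-12.6, a gene induced by the insulin pathway factor DAF-16, had 189, 664, 219 and 262 CPM across N2 A to D, 487, 475, 682 and 437 CPM across HBR2340 A to D, and 148, 125, 195 and 108 CPM across PHX2193 A to D. Both had an order like that of hsp-70, with N2 B high, the HBR2340 libraries above N2 A, C and D, and PHX2193 low. PHX2193 C lay above N2 A for hsp-12.6, as PHX2193 B and C did for hsp-70. N2 B lay above the HBR2340 range for hsp-12.3 and within it for hsp-12.6 and hsp-70. In HBR2340 against N2 the log2 fold change over 12 libraries was 0.20 ± 0.72 for hsp-12.3 and 0.64 ± 0.35 for hsp-12.6, neither called (edgeR, adjusted p = 0.910 and 0.336). Without N2 B it was 1.99 ± 0.26 for hsp-12.3 and 1.21 ± 0.21 for hsp-12.6 (edgeR, adjusted p = 0.000480 and 0.00228). PHX2193 was lower than HBR2340 by −3.07 ± 0.78 and −1.85 ± 0.36 over 12 libraries (0.0159 and 0.00350, edgeR) and by −3.06 ± 0.25 and −1.84 ± 0.20 without N2 B (4.41e-06 and 2.23e-05).

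In PHX2193 against HBR2340 the same list had 1 higher (bag-1, an HSP70 cofactor) and 5 lower (hsp-12.3, hsp-12.6, the chaperonin subunit cct-3, dnj-12, and hsb-1, which binds HSF-1), and 1 higher and 8 lower without N2 B. The lower calls are 15.6% of the list over 12 libraries and 25% without N2 B, against 9.39% and 15.6% of all tested genes, and the higher call is 3.12% in both, against 10.1% and 17.3%. Of these, bag-1, cct-3 and dnj-12 were named after their values were seen. PHX2193 against N2 had 0 of 32 by edgeR in both fits, with 8 and 6 at an unadjusted p under 0.05, and DESeq2 called 1 and limma-voom 0 over 12 libraries. The hsb-1 difference was −0.44 ± 0.11 (edgeR, adjusted p = 0.0145), and −0.43 ± 0.09 without N2 B (0.00269). Of 22 other ER folding and degradation genes, the DNAJ gene dnj-20 was higher in PHX2193 than in HBR2340 (0.52 ± 0.13, edgeR, adjusted p = 0.0144, and 0.53 ± 0.09, 0.000488 without N2 B), and 0 were lower over 12 libraries and 3 (13.6%) without N2 B. Over 12 libraries none was called against N2 by edgeR, DESeq2 or limma-voom (2 at an unadjusted p under 0.05 by edgeR in HBR2340 and 1 in PHX2193), and without N2 B edgeR called 0 against N2 as well (5 and 1 at an unadjusted p under 0.05). Of 24 mitochondrial folding, import and stress genes, 21 were tested. In PHX2193 against HBR2340, 1 was higher (4.76%) and 1 lower over 12 libraries, and 1 higher and 3 lower (14.3%) without N2 B. The elongation factor gene gfm-1 was lower (−0.62 ± 0.12, edgeR, adjusted p = 0.00269, and −0.61 ± 0.11, 0.000726 without N2 B) and the import-peptidase gene mppb-1 higher (0.59 ± 0.15, 0.0162, and 0.60 ± 0.10, 0.000541 without N2 B). In HBR2340 against N2, mppb-1 stood at −0.33 ± 0.15 over 12 libraries (edgeR, adjusted p = 0.245) and was lower without N2 B (−0.47 ± 0.11, 0.00911).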

How the data were processed

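RNA of 3 strains with 4 replicates each was sequenced, and the authors deposited raw counts per gene for each of the 12 libraries. Bowtie 0.12.2 aligned the reads, per the submitters' processing notes, and the builds named there are WBcel235 and mm8, a mouse build whose use is not stated. With the counting program, the annotation release, strand and the handling of multiply matching reads not given in the sources used here, values of near-identical genes are uncertain.

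The 43 symbols were matched to gene identifiers through an annotation of WBcel235, and hsp-16.1, hsp-16.11, hsp-16.48 and hsp-16.49 by position as well. The members and the gene lists were chosen with earlier results of these data known. The counts were analysed in R 4.3.3 with edgeR 4.0.16. A filter for low counts (filterByExpr by strain, minimum count 10, minimum total 15) kept 15908 of 46934 genes, or 16249 without N2 B, and all 43 members passed it. TMM scaling, a quasi-likelihood fit with 1 term per strain (9 residual df, common BCV 0.276) and Benjamini-Hochberg adjustment over all tested genes followed, with two-sided tests and calls at an adjusted p under 0.05. A standard error is the log2 fold change divided by the square root of F. CPM values were computed from the counts with TMM factors and no pseudocount. Intervals are at the 95% level, and 3 counts in a library stand for the lower limit of its depth, which covers counting error only.

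Given in full are members called in any comparison with or without N2 B, members more than 4-fold apart between N2 B and the mean of the other N2 libraries, and the founding chaperone or regulator of each compartment. Of other lists, up to 3 called genes per comparison were to be named. The pathway lists hold 32, 22 and 24 genes, of which tin-23 and clpx-1 could not be matched and tin-9.2 had too few counts. Marker lists covered body muscle, intestine, pharynx, neurons, epidermis, germ cells, embryo or oocyte, and sperm. Alternatives were DESeq2 size factors, no filter, DESeq2 1.42.0, limma-voom (limma 3.58.1) with sample weights, a replicate block, near-identical genes summed, and each library left out. The edgeR fit was tested on simulated counts, with changes placed in HBR2340 and read against N2. The simulation held no library deviating as N2 B does, and DESeq2, limma-voom and the replicate block were not tested on it.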

Additional observations from a re-analysis of the deposited data

Results flagged for a closer look

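In each of the 129 sets of 4 libraries (43 genes in 3 strains), the gap between the highest or lowest library and its nearest neighbour was divided by the range of the set. In 21 sets this was above Dixon's 95% value for 4 samples, which chance passes in about 1 in 20 sets. In 14 of the 21 the library was N2 B, each time the highest. Among cytosolic genes these were hsp-16.2 (0.970), hsp-16.41 (0.961), hsp-1 (0.956), hsp-43 (0.932), hsp-110 (0.908), hsp-70 (0.891) and hsp-16.1 (0.864). Among ER genes they were pek-1 (0.926), hsp-3 (0.914), hrdl-1 (0.911), sel-11 (0.875), xbp-1 (0.858) and crt-1 (0.857). The mitochondrial protease gene clpp-1 was the last of them (0.854).

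The other 7 were spread over 4 libraries. PHX2193 A was lowest of its strain for hsp-16.2 (0.854), hsf-1 (0.838) and ubl-5 (0.923) and highest for timm-23 (0.894). HBR2340 A was highest for pdi-6 (0.833), HBR2340 C for ubl-5 (0.922) and HBR2340 D for timm-17B.1 (0.923). What set these libraries apart was not tested.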

How the results depend on the processing

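Across 20 alternatives, 2523 of 2580 values of single members (43 genes, 3 comparisons) kept their side of the threshold, 14 lost a call, 43 gained one and 0 reversed a call, while 197 uncalled values changed sign. A value without an adjusted p was counted as not called, here and in the counts by DESeq2. In PHX2193 against HBR2340, DESeq2 gave no adjusted p for hsp-16.2, hsp-16.41 and hsp-1, so their DESeq2 values are no sign of agreement. Counts of called genes and members moved more. HBR2340 against N2 had 1173 genes and 1 member called by edgeR over 12 libraries, 1856 and 2 by DESeq2, 3515 and 4 by limma-voom with sample weights, and 661 (without HBR2340 C) to 2880 genes (without N2 B) and 0 to 3 members with single libraries left out. PHX2193 against N2 had 58 genes and 0 members, 451 and 1 by DESeq2, 394 and 0 by limma-voom, and 7 (without PHX2193 C) to 228 genes (without N2 B) and 0 members with single libraries left out. PHX2193 against HBR2340 had 3106 genes and 4 members, 6705 and 16 by limma-voom, and 2237 (without HBR2340 D) to 5339 genes (without N2 B) and 2 to 11 members with single libraries left out. With the replicate block, 24 genes were called in PHX2193 against N2, and 1053 genes and 1 member, 0 members, and 3063 genes and 4 members in the 3 comparisons in turn. Deviations of same-letter libraries correlated by −0.18 to 0.20, except N2 D with PHX2193 D (0.66), and 3 of 12 libraries correlated best with their own letter, so the letters were taken as names. Chosen after seeing the data were leaving out N2 D and PHX2193 D, and leaving out these and N2 B. The first left 4 genes called in PHX2193 against N2. In it dnj-27 was no longer called and hsp-12.2 was newly called in HBR2340 against N2. In PHX2193 against HBR2340 it no longer gave a call of hsp-43. The second gave 3035 genes and 4 members, 131 genes, and 5565 genes and 14 members in the 3 comparisons in turn. The cause of these differences was not tested. With DESeq2 size factors in place of TMM, log2 fold changes of all genes shifted by a median of −0.016, −0.019 and −0.003 in the 3 comparisons in turn. Scaling by total counts was not used in a fit. The summed near-identical pairs, which also joined the neighbours hsp-16.2 and hsp-16.41, changed no count of called members. Low counts limit hsp-16.1, hsp-16.11, hsp-16.48, hsp-16.49 and hsp-12.1, at most 108 in a library.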

Other observations

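The small heat shock gene sip-1, known from oocytes and embryos, had 6.47, 8.91, 2.93 and 99.9 CPM across N2 A to D, 6.86, 8.66, 28.7 and 13.8 CPM across HBR2340, and 5.09, 10.3, 14.6 and 68.6 CPM across PHX2193. N2 D and PHX2193 D, the libraries with the highest embryo and oocyte markers, were also the highest for sip-1. Their part in the sip-1 level was not tested. This gene was picked after its values were seen.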
